A study of Mus musculus with 33 samples.

Results

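Receptors for glutamate and the proteins that anchor them under the postsynaptic membrane were followed in ganglionic eminences of mouse embryos that lack the transcription factors DLX1 and DLX2. The genes were chosen by symbol: those that start with Gria, Grid, Grik, Grin or Grm and a digit, those that start with Dlgap, Homer or Shank, and Dlg1 to Dlg4. This gave 40 of the 14664 genes in the deposited count table, 25 receptor genes and 15 scaffold genes, and all 40 passed the filter on low counts. Expression was measured by RNA-seq at e13.5 in Dlx1/2-/- (knockout) and wild-type embryos of the strain CD1, with 4 libraries per genotype. The labels name 4 embryos of both sexes per genotype but not the sex behind each library, the exons removed by the allele, or whether libraries came from separate litters. The p-values therefore measure the spread between these libraries. The ganglionic eminences are the swellings of the ventral forebrain that produce striatal projection neurons and GABAergic interneurons, so the libraries hold progenitors and young neurons together. In such bulk tissue, fewer cells of a type and less RNA per cell cannot be told apart.

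Glutamate is the main excitatory transmitter of the brain. AMPA, kainate and NMDA receptors are ion channels built from the Gria, Grik and Grin subunits, and the delta subunits (Grid) resemble them but act as synaptic organisers that bind cerebellins. Metabotropic receptors (Grm) signal through G proteins: group I couples to phospholipase C, and groups II and III lower cyclic AMP. In mature synapses, DLG proteins such as PSD-95 hold the channels, DLGAP proteins link DLG to SHANK, and HOMER links SHANK to group I receptors. Young forebrain neurons carry glutamate receptors before they form synapses, and receptor activity is known to affect the migration of interneurons.

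Library totals were 14.4 to 48.3 M counts in knockout and 20.2 to 117 M in wild type. Dlx1 had 21.5, 22.8, 23.4 and 26.1 CPM (read counts scaled to a common library total with TMM) in the knockout libraries, against 119, 121, 129 and 127 CPM in wild type. Dlx2 had 1.07, 1.02, 1.47 and 1.5 CPM in knockout and 18.7, 15.3, 21.8 and 29.0 CPM in wild type, so both targeted genes matched the labels. Gad2, which encodes an enzyme that makes GABA and marks the lineage of this tissue, was at 56.3 ± 3.68 CPM in knockout and 158.1 ± 6.995 CPM in wild type (SD, n = 4 each). Both genotypes showed a shift between replicates 1 and 2 on one side and 3 and 4 on the other: 29 of the 40 genes (72.5%) had the same sign of that difference in knockout and in wild type, against 80.8% of all genes. Knockout replicate 3, the shallowest library, held the highest of the 4 knockout values for 28 of the 40 genes (70%), against 28.5% of all genes, so results are given with and without it where it moves them.

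None of the 40 genes passed the edgeR quasi-likelihood test at an adjusted p of 0.05 when genotype was the only term, against 1.48% of all genes called. At an unadjusted p under 0.05, 7 were lower and 1 was higher in knockout, against 3.69% and 4% of all genes (7.69% together). DESeq2 called 3 lower, namely Grik3, Grm4 and Grm5, against 3.23% of all genes. With the replicate number as a block, which compares libraries of the same number, 5 fell (Grik3, Grm4, Grm5, Grik1 and Dlgap1) and 1 rose (Dlgap3). In that fit 4.38% of all genes were called, 2.16% lower and 2.22% higher. Without replicate 3 of both genotypes the block gave 6 lower and 1 higher, against 3.65% of all genes, and without replicate 1 it gave 3 lower (Grik3, Grm4 and Grm5), against 3.09%. Without replicate 2 it gave 1 lower (Grik3), against 2.56% of all genes, and without replicate 4 it gave 1 lower (Grik3) and 1 higher (Dlgap3), against 3.05%. A 2-level term that only separates replicates 1 and 2 from 3 and 4 gave 5 lower and 1 higher, against 4.61% of all genes. Replicates 1 and 2 alone gave 6 lower and 1 higher against 2.6%, and replicates 3 and 4 alone gave 1 lower against 1.41%. The knockout and wild-type values of 3 genes did not overlap, all lower in knockout (Grik3, Grm5 and Dlgap2), against 3.09% of all genes lower and 5.98% in either direction. The median log2 change of the 40 genes was −0.078 and that of all genes −0.003. Most of the genes lay close to no change: 29 of 40 were within 0.25 on the log2 scale. The share of all genes within 0.25 was not counted. Of the 40, 27 were below 0 and 13 above, where 51% of all genes were below 0.

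**Figure D1:**
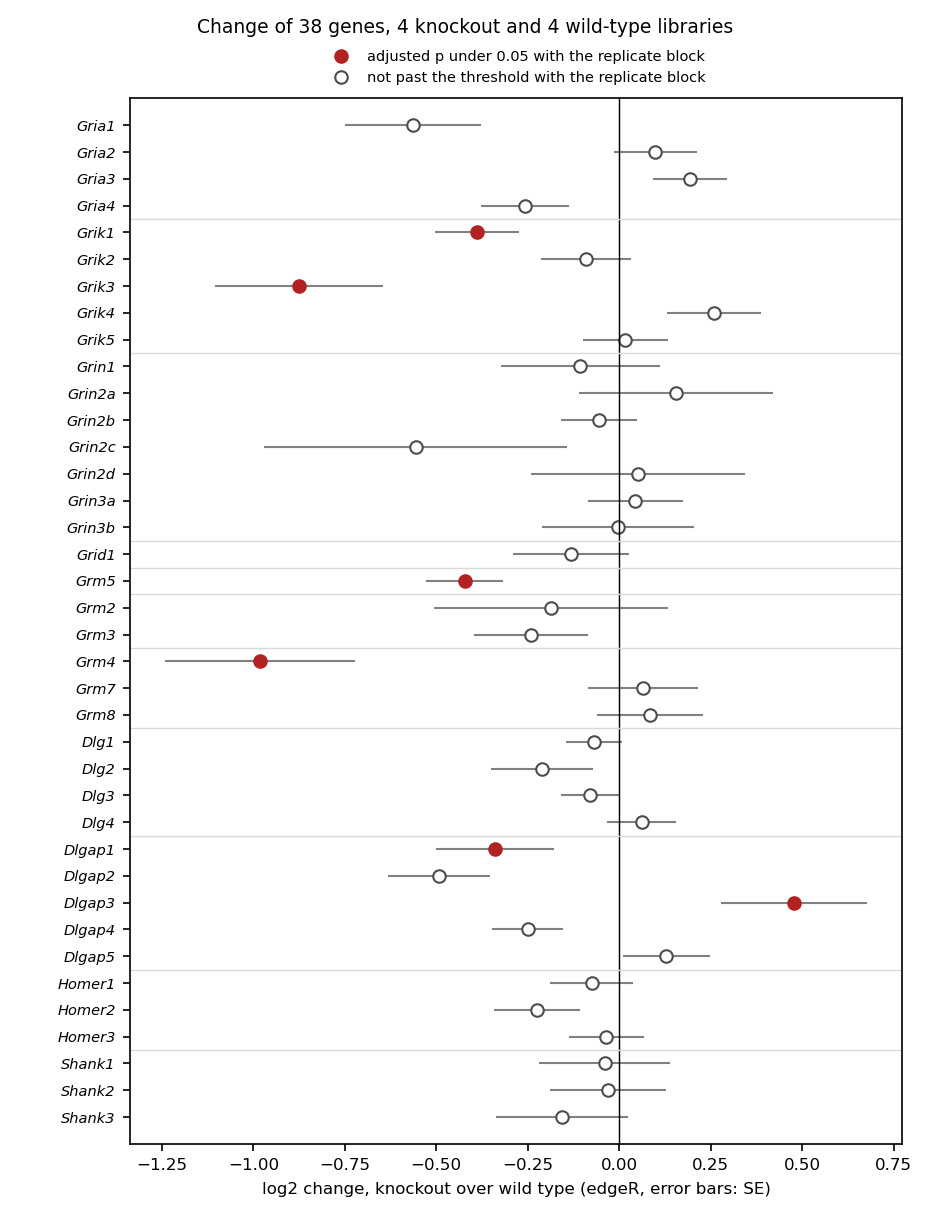
Log2 change of 38 genes, knockout over wild type, from the edgeR fit without a block (x axis), with genes grouped by family down the page and bars of 1 standard error. Filled points passed the fit with the replicate block. Grm4 at −0.98 and Grik3 at −0.87 lie farthest to the left, and Dlgap3 at 0.48 lies farthest to the right.

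Among the kainate receptor genes, Grik3 had the largest difference. Grik3 encodes GluK3, a subunit of low glutamate affinity. It had 82.5, 77.2, 142 and 133 CPM in the knockout libraries, against 169, 152, 236 and 239 CPM in wild type. The highest knockout library lay below the lowest wild-type library, although replicates 3 and 4 were above replicates 1 and 2 in both genotypes. The knockout mean was 54.6% of wild type (108.7 ± 33.5 against 198.9 ± 45.0 CPM, SD, n = 4 each). The log2 change was −0.87 (SE 0.23), with an edgeR adjusted p of 0.132 without the block, 2.55e-05 with it and 0.0113 with DESeq2. Between same-numbered libraries the log2 ratios were −1.03, −0.98, −0.73 and −0.85. Within replicates 1 and 2 alone the change was −1.01 (edgeR adjusted p = 0.000186), and within replicates 3 and 4 alone it was −0.79 (adjusted p = 0.000922). Grik3 also passed the block fit when any 1 replicate number was left out, with edgeR adjusted p-values of 0.000106 to 0.000595. The authors' deposited table lists Grik3 at a log2 change of −0.874 and an adjusted p of 0.00603.

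Grik1, which encodes GluK1, a subunit found in many forebrain interneurons, had 16.0, 16.2, 21.4 and 15.3 CPM in knockout and 22.9, 23.2, 22.5 and 21.2 CPM in wild type. Only knockout replicate 3 reached into the wild-type range. Its log2 change was −0.39 (SE 0.12), with an edgeR adjusted p of 0.209 without the block and 0.034 with it. Without knockout replicate 3 the unblocked change was −0.50 (adjusted p = 0.0268). With the block, leaving out replicate 1, 2 or 4 ended the call. The other subunits did not pass any of these tests. Grik2, which encodes GluK2, was at 81.4 ± 8.37 CPM in knockout and 86.7 ± 12.8 CPM in wild type. The genes of the high-affinity subunits GluK4 and GluK5 were at 8.27 ± 0.559 and 6.91 ± 1.03 CPM for Grik4, and at 38.4 ± 4.52 and 37.97 ± 4.32 CPM for Grik5, knockout first in both (SD, n = 4 each).

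These differences altered the make-up of the kainate receptor reads. The summed level of Grik1 to Grik5 was 223.7 to 300.7 CPM in knockout and 319 to 386.2 CPM in wild type. Grik3 held 36.3, 34.5, 47.2 and 50.3% of the family's reads in knockout and 51.5, 47.7, 62.2 and 61.9% in wild type. The ranges overlapped, and in both genotypes the share was higher in replicates 3 and 4 than in replicates 1 and 2. Grik5 held 15.2 ± 0.599% in knockout and 10.8 ± 0.922% in wild type without overlap (SD, n = 4 each), and Grik4 held 2.89 to 3.67% and 1.6 to 2.17%. Shares of a family are tied to each other, so a higher share of Grik5 goes with a lower level of Grik3 and is no change of Grik5 itself. They are given as a description, with no test.

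Among the AMPA receptor genes, Gria1 and Gria4 were below wild type and Gria3 above it in mean level. Gria2 was above wild type in mean level only through knockout replicate 3 (396.1 CPM). The other knockout libraries held 282.9 to 298.4 CPM of Gria2, against a wild-type mean of 296.6 CPM. None of the 4 genes passed with or without the block. Gria1, which encodes the subunit GluA1, had 44.96, 44.7, 80.6 and 55.1 CPM in knockout, against 85.8, 86.6, 69.98 and 89.7 CPM in wild type. Knockout replicate 3 and wild-type replicate 3 were in reverse order to the other numbers. The log2 change was −0.56 (SE 0.19), with an edgeR adjusted p of 0.292 without the block and 0.0853 with it. Leaving out knockout replicate 3 gave −0.78 (edgeR adjusted p = 0.0187), and leaving out replicate 3 of both genotypes from the block gave −0.86 (adjusted p = 0.000518). Replicates 1 and 2 alone gave −0.94 (edgeR adjusted p = 0.000424), and replicates 3 and 4 alone gave −0.24 (adjusted p = 0.831).

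Gria4, which encodes GluA4, had 82.98, 84.7, 102.7 and 73.7 CPM in knockout and 110.3, 113.5, 99.2 and 88.2 CPM in wild type, and the groups overlapped. Its log2 change was −0.26 (SE 0.12, edgeR adjusted p = 0.692, and 0.112 with the block). It passed within replicates 1 and 2 alone (−0.42, edgeR adjusted p = 0.0157) and with the block when replicate 3 was left out (−0.36, adjusted p = 0.0187). Gria2 encodes GluA2, whose edited form makes AMPA receptors almost impermeable to calcium. It had 282.9, 298.4, 396.1 and 293.5 CPM in knockout, against 291.9, 302.5, 307 and 284.9 CPM in wild type. Knockout replicate 3 lay above all wild-type libraries, replicate 1 just below them, and replicates 2 and 4 among them. The log2 change was 0.10 (SE 0.11, edgeR adjusted p = 1) and turned negative without knockout replicate 3. Gria3 was at 35.5 ± 3.42 CPM in knockout and 31.0 ± 2.56 CPM in wild type (SD, n = 4 each).

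The share of Gria2 among AMPA receptor reads was nearly the same in all knockout libraries and higher than in any wild-type library. It was 63.6, 64.8, 63.9 and 64.1% in knockout and 56.4, 56.9, 60.1 and 57.8% in wild type. Gria1 held 10.1, 9.7, 13 and 12% in knockout and 16.6, 16.3, 13.7 and 18.2% in wild type, again without overlap. In knockout replicate 3 the level of Gria1 was high, yet the Gria2 share was like that of the other knockout libraries. All 4 AMPA receptor genes, Gria2 among them, had their highest knockout value in this library. Their sum was 619.7 CPM in that library, against 444.6 to 460.3 CPM in the other knockout libraries and 492.9 to 532 CPM in wild type.

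**Figure D2:**
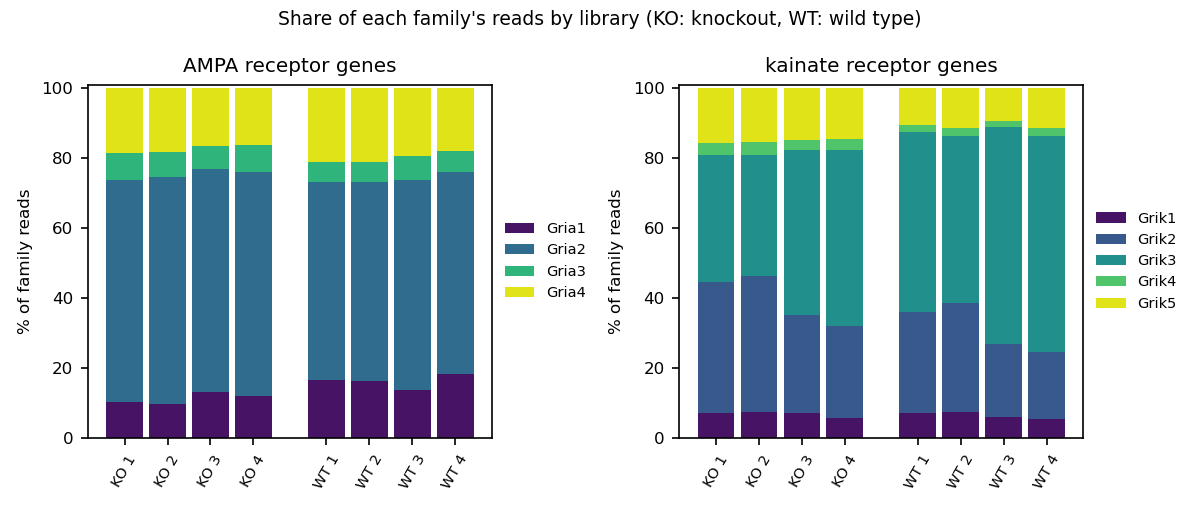
Stacked bars of the percentage of reads of the AMPA receptor genes (left) and of the kainate receptor genes (right) held by each gene, with 1 bar per library, knockout left of wild type. Gria2 holds 63.6 to 64.8% in knockout and 56.4 to 60.1% in wild type, and Grik5 averages 15.2% and 10.8%.

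NMDA receptors need the subunit GluN1, and their GluN2 subunits set their kinetics. None of the 7 NMDA receptor genes passed with or without the block, and 6 of them were within 0.25 on the log2 scale. Grin2b, which encodes the GluN2B subunit of early development, had 35.95, 32.3, 40.6 and 31.1 CPM in knockout and 37.1, 35.9, 33.95 and 38.2 CPM in wild type. The groups overlapped, with a log2 change of −0.05 (SE 0.10, edgeR adjusted p = 1). Grin2b held 91 to 94.3% of the reads of the GluN2 genes in knockout and 93 to 94.1% in wild type. Grin1 was at 4.45 ± 0.756 CPM in knockout and 4.79 ± 1.39 CPM in wild type. The genes of the GluN3 subunits, which reduce calcium entry, were at 19.4 ± 3.02 and 18.75 ± 2.01 CPM for Grin3a and at 2.07 ± 0.286 and 2.08 ± 0.532 CPM for Grin3b, knockout first. Grin2a, Grin2c and Grin2d had means of 0.421 to 1.15 CPM in knockout and 0.538 to 1.09 CPM in wild type. Grin2c was covered by only 9 to 51 reads per library, too few to show a moderate difference.

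The delta receptor gene Grid1 did not pass either. It had 10.9, 9.03, 14.6 and 11.7 CPM in knockout and 10.8, 11.48, 14.1 and 14 CPM in wild type, with a log2 change of −0.13 (SE 0.16, edgeR adjusted p = 1) and overlapping groups.

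Of the metabotropic receptor genes, 1 of group I and 1 of group III fell with the block. Grm5 encodes mGluR5, a group I receptor expressed by progenitors as well as neurons. It had 64.5, 65.1, 68.95 and 52.1 CPM in knockout, against 86.2, 90.6, 80.0 and 78.9 CPM in wild type. All knockout libraries lay below all wild-type libraries, at 74.6% of the wild-type mean. The log2 change was −0.42 (SE 0.10), with an edgeR adjusted p of 0.105 without the block, 0.00724 with it and 0.00746 with DESeq2. With the block it passed without replicate 1 (edgeR adjusted p = 0.0245) and without replicate 3 (0.00482), but not without replicate 2 or 4.

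Grm4 encodes mGluR4, a presynaptic receptor of group III. It had 2.61, 2.55, 4.75 and 3.35 CPM in knockout and 4.57, 5.59, 6.41 and 9.09 CPM in wild type, from 71 to 522 reads per library. The groups overlapped by a small margin, between knockout replicate 3 and wild-type replicate 1, while every knockout library lay below the wild-type library of its number. The log2 change was −0.98 (SE 0.26), with an edgeR adjusted p of 0.134 without the block, 0.0116 with it and 0.011 with DESeq2. The authors' deposited table lists Grm4 at −0.977 with an adjusted p of 0.0121. It has 2 of the 40 genes under 0.05 (Grik3 and Grm4), against 328 of all 14664 genes. With the block Grm4 passed without replicate 1 (edgeR adjusted p = 0.0296) and without replicate 3 (0.00759), but not without replicate 2 or 4.

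Other genes of groups II and III did not pass with or without the block. Grm7, also of group III, had 13.2, 13.2, 19.9 and 12.7 CPM in knockout and 13.1, 13.1, 15.2 and 14.7 CPM in wild type. Its log2 change was 0.06 (SE 0.15, edgeR adjusted p = 1) and turned to −0.10 without knockout replicate 3. Grm8 was at 4.87 ± 0.745 CPM in knockout and 4.58 ± 0.431 CPM in wild type. Grm3, of group II, had 9.56, 6.92, 7.89 and 6.16 CPM in knockout and 9.35, 10.5, 8.19 and 8.09 CPM in wild type, and these groups overlapped (log2 change −0.24, SE 0.16, edgeR adjusted p = 1). Grm2 was at 1.42 ± 0.378 CPM in knockout and 1.601 ± 0.713 CPM in wild type. Over the whole metabotropic family, the summed level was 103.7 to 141.6 CPM in knockout and 140.1 to 146 CPM in wild type, with knockout replicate 3 alone inside the wild-type range.

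**Figure D3:**
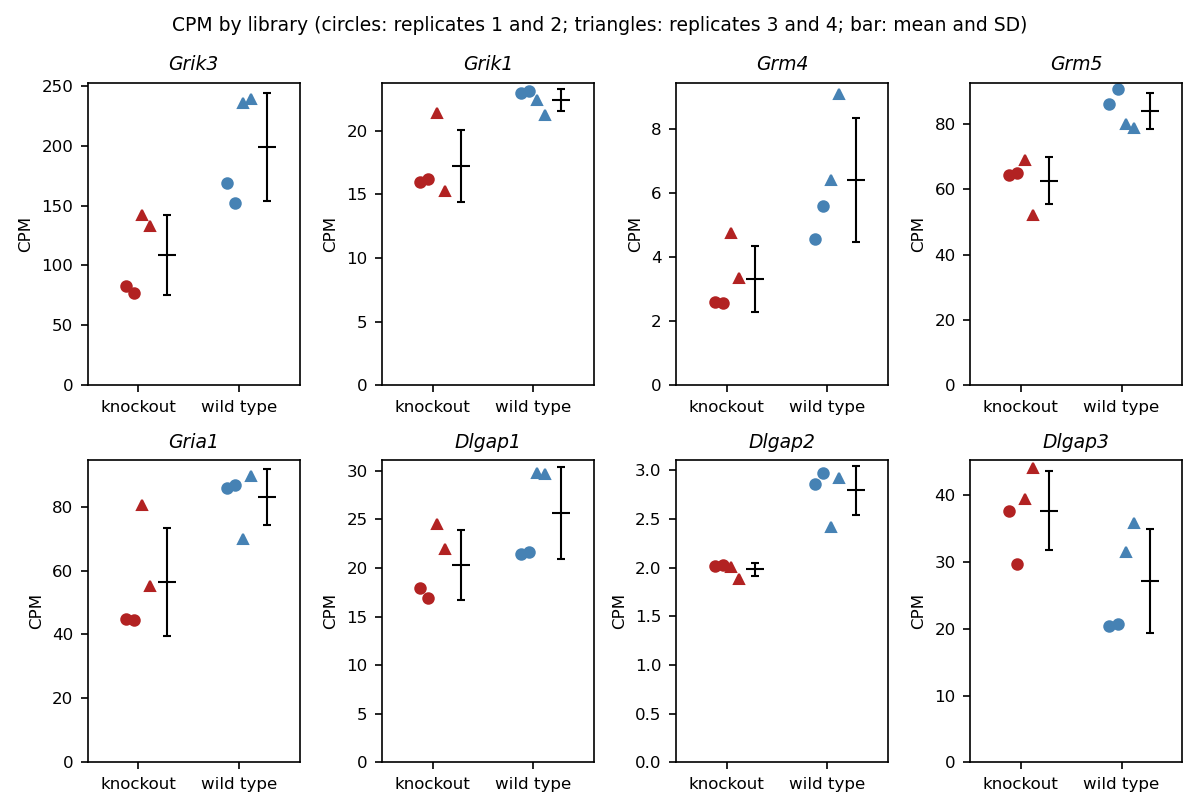
CPM (y axes, from 0) of 8 genes in each library, knockout left of wild type, with circles for replicates 1 and 2, triangles for replicates 3 and 4, and bars for the mean and SD of 4 libraries. Grik3 lies at 77.2 to 142 CPM in knockout and 152 to 239 CPM in wild type, with triangles above circles in both, and Gria1 has 1 knockout library at 80.6 CPM.

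Among the scaffold genes, the Dlgap family was the only one with calls in the block fit. Its proteins bind the guanylate kinase domain of DLG. Dlgap1 had 17.9, 16.9, 24.5 and 21.9 CPM in knockout and 21.4, 21.6, 29.8 and 29.7 CPM in wild type. The groups overlapped, yet each knockout library lay below the wild-type library of its number. Its log2 change was −0.34 (SE 0.16), with an edgeR adjusted p of 0.710 without the block and 0.0196 with it. Leaving any 1 replicate number out of the block ended this call.

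Dlgap3 moved the other way. It had 37.7, 29.7, 39.4 and 43.99 CPM in knockout, against 20.4, 20.7, 31.5 and 35.9 CPM in wild type. The groups overlapped, and every knockout library lay above its wild-type number. The log2 change was 0.48 (SE 0.20), with an edgeR adjusted p of 0.564 without the block and 0.0188 with it. The log2 ratios by replicate number were 0.89, 0.52, 0.33 and 0.29. With the block it passed without replicate 3 (edgeR adjusted p = 0.0244) or 4 (0.0205), but not without replicate 1 or 2. Dlgap3 held 41.2 to 48.6% of the reads of Dlgap1 to Dlgap4 in knockout and 27.7 to 35.8% in wild type, while the sum of the 4 genes was 83.8 ± 8.35 CPM in knockout and 83.9 ± 13.9 CPM in wild type (SD, n = 4 each).

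Dlgap2 had 2.02, 2.03, 2.01 and 1.89 CPM in knockout and 2.86, 2.97, 2.42 and 2.92 CPM in wild type, from 30 to 327 reads per library. The groups did not overlap, but the log2 change of −0.49 (SE 0.14) did not pass (edgeR adjusted p = 0.170, and 0.156 with the block). Dlgap4 was at 23.8 ± 1.31 CPM in knockout and 28.3 ± 2.86 CPM in wild type (edgeR adjusted p = 0.468). Dlgap5 shares the name but encodes HURP, a protein of the mitotic spindle. It had 43.9, 56.99, 53.1 and 61.4 CPM in knockout and 51.4, 51.0, 51.2 and 43.3 CPM in wild type, with overlapping groups and a log2 change of 0.13 (SE 0.12, edgeR adjusted p = 1).

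The upstream sequence of Dlgap1 is shown because it was the only one of the 6 genes called in the block fit with a listed start whose upstream window lay wholly outside its annotated span. RefSeq (GRCm38.p6) places the 250 bases before this start at chr17:69968823-69969072, plus strand, next to the gene at 69969073-70821413. It is printed from 5′ to 3′ with CpG dinucleotides, the sites of DNA methylation in mammals, in capitals.
Dlgap1: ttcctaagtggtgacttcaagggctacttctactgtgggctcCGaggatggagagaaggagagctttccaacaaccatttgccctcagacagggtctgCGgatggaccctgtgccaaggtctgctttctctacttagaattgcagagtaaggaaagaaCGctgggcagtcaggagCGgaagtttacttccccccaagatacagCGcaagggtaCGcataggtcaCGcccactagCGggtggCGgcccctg
This window holds 9 CpG dinucleotides and 55.2% G and C. A listed Grik3 window, which lies inside the annotated span of that gene, holds 42 CpG and 82% G and C, and a Dlgap3 window, also inside its gene, holds 2 CpG and 46.8%. The table of RefSeq promoters used here holds 25 of the 40 genes, with 39 starts in all, with a median of 9 CpG per window against 6 over all 32851 starts in the table. The letters TAATTA, a core bound by many homeodomain proteins that reads the same on both strands, were in 0 of the 39 windows and in 4.84% of all windows. The absence says only that these letters are not in these windows.

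The DLG, HOMER and SHANK genes did not pass with or without the block, and all 10 were within 0.25 on the log2 scale. Dlg3, which encodes SAP102, the DLG protein of immature synapses, had 130.1, 133.3, 144.2 and 128.6 CPM in knockout and 148.7, 149.3, 135.7 and 133.3 CPM in wild type. The groups overlapped (log2 change −0.08, SE 0.08, edgeR adjusted p = 1). Dlg4, which encodes PSD-95, was at 79.9 ± 7.12 CPM in knockout and 76.6 ± 5.04 CPM in wild type. Dlg1 (SAP97) was at 68.98 ± 2.09 and 72.4 ± 3.06 CPM, and Dlg2 (PSD-93) at 44.5 ± 6.54 and 51.6 ± 7.70 CPM, knockout first. The 4 genes together held 316.3 to 349.5 CPM in knockout and 332 to 358.3 CPM in wild type.

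Homer1 had 119.6, 131.3, 106.9 and 101.3 CPM in knockout and 136.7, 128.8, 111.1 and 107.2 CPM in wild type, with overlapping groups (log2 change −0.08, SE 0.11, edgeR adjusted p = 1). Homer2 was at 39.0 ± 5.82 CPM in knockout and 45.7 ± 3.15 CPM in wild type, and Homer3 at 47.45 ± 5.22 and 48.7 ± 2.81 CPM. Shank1 had 10.4, 9.60, 15.5 and 13.2 CPM in knockout and 10.5, 11.53, 12.01 and 15.8 CPM in wild type. Its groups overlapped as well (log2 change −0.04, SE 0.18, edgeR adjusted p = 1). Shank2 was at 9.48 ± 1.87 CPM in knockout and 9.62 ± 1.28 CPM in wild type, and Shank3 at 7.68 ± 0.952 and 8.56 ± 2.24 CPM. Within the Homer, Shank and Dlg families, the shares of every gene overlapped between the genotypes.

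**Figure D4:**
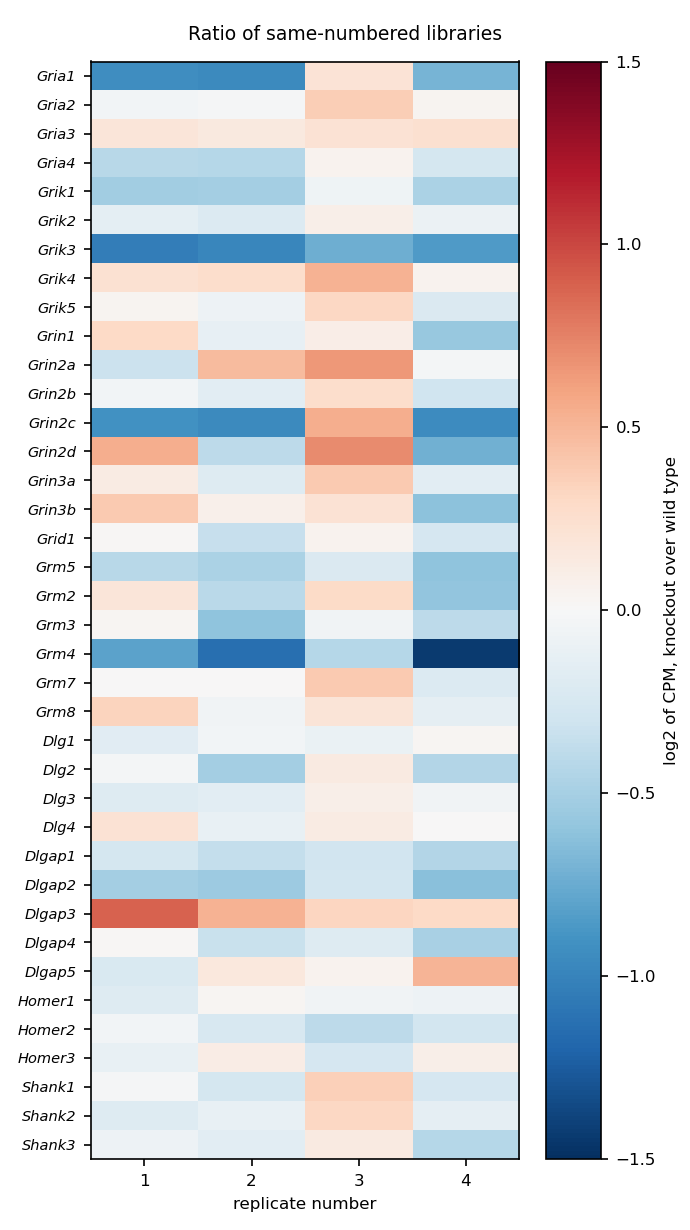
Log2 ratio of CPM between the knockout and the wild-type library of the same replicate number (columns 1 to 4) for 38 genes (down the page), with lower in knockout in blue and higher in red. Grik3 is between −0.73 and −1.03 in all 4 columns, Dlgap3 is above 0 in all 4, and most genes are pale or mixed.

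Genes that work with these receptors were taken from 7 lists named by function, with 91 genes, of which 87 were tested. With genotype as the only term 2 fell (Adarb2 and Shisa9) and 0 rose, where 1.48% of all genes were called. With the block 5 fell and 1 rose, where 2.16% of all genes were lower and 2.22% higher. DESeq2 called 3 lower and 0 higher, where 3.23% of all genes were called. The median log2 change of the 87 genes was −0.016. The lists hold 15 tested AMPA receptor auxiliary proteins, 5 partners of kainate and delta receptors, 26 proteins of trafficking and the postsynaptic density, 14 adhesion proteins and pentraxins, 11 genes of glutamate and D-serine handling, 13 of metabotropic signalling and 3 of RNA editing. No gene of glutamate handling passed with any of these 3, and no adhesion gene passed with edgeR with or without the block.

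Adarb2 had the largest difference. It encodes ADAR3, a brain protein related to the enzymes that edit glutamate receptor transcripts, for which no editing activity is known. It had 12.4, 14.3, 16.0 and 15.4 CPM in knockout, against 42.3, 42.9, 41.8 and 36.5 CPM in wild type. The groups lay far apart, at 35.4% of the wild-type mean, with a log2 change of −1.497 (SE 0.11, edgeR adjusted p = 4.27e-05). The call held in all the alternatives run. The genes of the editing enzymes themselves did not pass: Adarb1, whose product edits the Gria2 transcript, was at 18.1 ± 1.97 CPM in knockout and 17.3 ± 2.05 CPM in wild type, and Adar at 78.7 ± 16.9 and 83.2 ± 17.7 CPM. Editing itself cannot be read from gene counts.

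Shisa9 encodes CKAMP44, an auxiliary protein of AMPA receptors. It had 1.64, 1.57, 1.61 and 1.58 CPM in knockout and 2.27, 3.07, 2.63 and 2.88 CPM in wild type, from 24 to 259 reads per library. The groups did not overlap, and the log2 change was −0.75 (SE 0.16, edgeR adjusted p = 0.0489, and 0.0478 with the block). Leaving out any 1 of the 8 libraries ended the unblocked call (adjusted p = 0.0622 to 0.147), and leaving any 1 replicate number out of the block ended the blocked one.

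The genes that passed only with the block or only with DESeq2 among these 3 were named after their values were seen. Lrfn2, a postsynaptic adhesion protein, had 6.83, 8.01, 9.03 and 5.93 CPM in knockout and 9.8, 10.04, 12.09 and 14.75 CPM in wild type, without overlap. Its log2 change was −0.65 (SE 0.17), with an edgeR adjusted p of 0.136, 0.0525 with the block and 0.0175 with DESeq2. Neto1, an auxiliary subunit of kainate receptors, had 5.03, 4.62, 3.34 and 2.93 CPM in knockout and 7.34, 8.26, 5.01 and 4.04 CPM in wild type. Each knockout library was below its wild-type number (log2 change −0.62, SE 0.25, edgeR adjusted p = 0.538, and 0.0244 with the block). Cbln2, a cerebellin that binds delta receptors, had 75.1, 81.8, 72.1 and 82.7 CPM in knockout and 68.3, 53.1, 55.9 and 67.6 CPM in wild type without overlap. Its log2 change was 0.35 (SE 0.11, edgeR adjusted p = 0.249, and 0.0393 with the block). Grip1, which binds AMPA receptor subunits, was at 45.4 ± 5.91 CPM in knockout and 55.8 ± 4.10 CPM in wild type (log2 change −0.30, SE 0.11, edgeR adjusted p = 0.432, and 0.0393 with the block). Rgs4, which dampens G protein signals, was at 36.95 ± 6.10 and 46.8 ± 4.91 CPM (log2 change −0.34, SE 0.14, edgeR adjusted p = 0.515, and 0.0476 with the block).

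**Figure D5:**
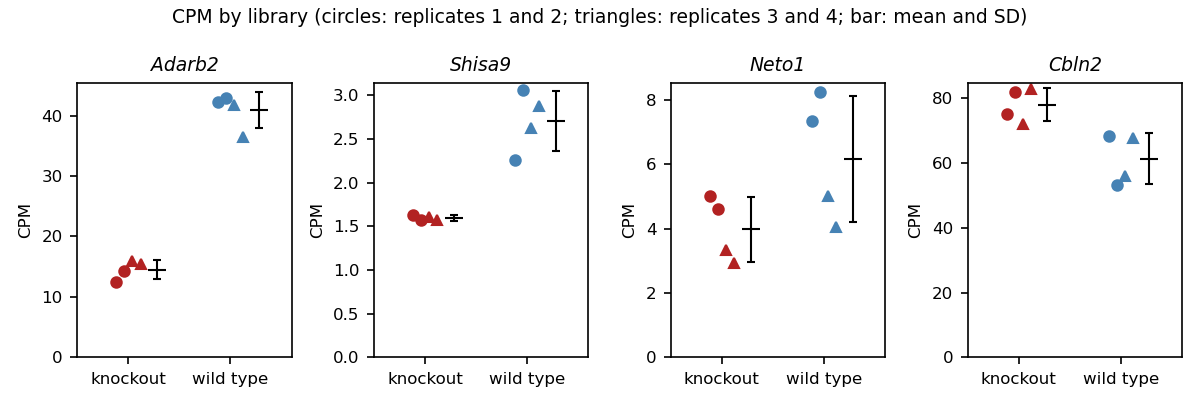
CPM (y axes, from 0) of 4 partner genes in each library, knockout left of wild type, drawn with circles for replicates 1 and 2, triangles for replicates 3 and 4, and bars for the mean and SD of 4 libraries. Adarb2 lies at 12.4 to 16.0 CPM in knockout and 36.5 to 42.9 CPM in wild type, and Cbln2 is the one that lies higher in knockout.

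Summed levels of markers of several cell types differed by genotype beside these genes, and their part in the results was not tested. Such sums follow the most abundant genes. The summed level of 8 eminence identity genes, which include the targeted Dlx1 and Dlx2, was 238.1 to 274.1 CPM in knockout and 531.9 to 537.5 CPM in wild type, with 4 of 8 lower. The 10 markers of postmitotic neurons summed to 5042 to 5407 CPM in knockout and 5409 to 5927 CPM in wild type. These ranges nearly touched, and each single marker overlapped between the genotypes. Most of the difference lay in Tubb3 (mean 1611 CPM in knockout, 1836 CPM in wild type) and Dcx (1094 and 1250 CPM). Map2, Rbfox3 and Gap43 had higher means in knockout. Without the block 0 of 10 were called, and with it 1 was lower. Radial glia markers summed to 2508 to 3074 CPM in knockout and 1969 to 2445 CPM in wild type without overlap. Fabp7 weighed most in the difference (mean 1284 CPM in knockout, 1004 CPM in wild type). Every radial glia marker had a higher mean in knockout, but only Hes5 was without overlap. Without the block 0 of 8 were called, and with it 3 were higher. Oligodendrocyte precursor markers summed to 73.1 to 131.2 CPM and 45.1 to 62.1 CPM, with 2 of 6 higher in knockout (Pdgfra and Gpr17). Markers of pallial glutamatergic neurons, the main neighbouring cells that use glutamate, summed to 658.1 to 830.4 CPM in knockout and 621.3 to 748 CPM in wild type, with 0 of 12 called with or without the block. Markers of microglia (0 of 8 called), endothelium (0 of 7) and erythroid cells (0 of 6) had overlapping sums, and no tested marker was at 0 in any library.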

How the data were processed

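Whole-number read counts per gene were deposited by the authors, in 1 table with 4 knockout and 4 wild-type libraries. Per the submitters' processing notes, reads were handled with bcl2fastq and STAR 2.4.2a on mm9. The counting tool, its annotation and its strand setting were not given in the sources used here. GEO's labels call the RNA polyA while the protocol names a ribosomal depletion kit. Its other columns, per the file headers, come from the authors' own comparison: log2 change, log2 mean expression, a score (likelihood ratio), p-value and adjusted p. A spreadsheet had turned 23 symbols into dates. The symbol Grm6 was not in the count table. ChIP files and gene lengths were not used here, so levels of different genes are not compared as results.

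Counts were tested with edgeR 4.0.16 in R 4.3.3 (quasi-likelihood, TMM, filterByExpr with a minimum count of 10, two-sided). Benjamini-Hochberg adjustment was made over all 14510 genes, with a threshold of 0.05. The procedure was first run on simulated counts with known fold changes. Those counts held no shift between replicates 1 and 2 and replicates 3 and 4, so that run does not cover such a shift. CPM uses TMM-scaled totals. Values are mean ± SD, and SE is the log2 change over the square root of F. Alternatives were the replicate block, DESeq2 1.42.0, other scaling and filters, single libraries left out, and replicates 1 and 2 or 3 and 4 alone. A 2-level term for these pairs of numbers, and the block without 1 replicate number, were chosen after seeing the data.

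The labels do not say that a replicate number marks a shared litter or batch. Deviations of same-numbered libraries from their genotype means correlated at 0.155, 0.293, 0.374 and 0.482 across genes, all above 0.1, so the numbers were taken as pairs. Knockout replicates 1 and 2 correlated better with the other of wild-type replicates 1 and 2 (0.394 and 0.603). Knockout replicates 3 and 4 correlated with the other of wild-type replicates 3 and 4 at 0.226 and 0.216, also above 0.1. The rule therefore cannot tell pairing by number from the shift between replicates 1 and 2 and replicates 3 and 4.

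Genes given in every library are those called with or without the block, the highest of each family by CPM (used to choose what is shown, since CPM also follows gene length), and the 3 others of at least 1 CPM with the largest log2 change. Partner genes called without the block are named too. Values of 2 of the 40 genes are not reported here, though both count among the 40. Members, lists and rules were chosen with earlier results of these data known.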

Additional observations from a re-analysis of the deposited data

Results flagged for a closer look

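In each genotype the highest or lowest of the 4 values of each of 38 genes was compared with its nearest neighbour. In 7 of 76 groups that gap took more of the group's whole range than Dixon's critical value allows, where chance gives about 5%. Knockout replicate 3, the shallowest library, was the one apart in 3 of them. It held 396.1 CPM of Gria2 (other knockout libraries 282.9 to 298.4), 21.4 CPM of Grik1 (15.28 to 16.22) and 19.86 CPM of Grm7 (12.74 to 13.21). Knockout replicate 4 held 1.886 CPM of Dlgap2, below the 2.006 to 2.028 CPM of the others. Dlgap2 had only 30 to 327 reads per library, and Dixon's comparison takes no account of how few reads lie behind a value. In wild type, replicate 4 held 43.26 CPM of Dlgap5 (others 51.01 to 51.41) and 2.667 CPM of Grm2 (1.187 to 1.316), and replicate 3 held 34.84 CPM of Gria3 (29.39 to 30.09). Why these libraries stand apart was not tested.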

How the results depend on the processing

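Without a block, 0 of the 40 genes were higher and 0 lower in knockout. The replicate block gave 1 higher and 5 lower, the 2-level term 1 and 5, replicates 1 and 2 alone 1 and 6, replicates 3 and 4 alone 0 and 1, and DESeq2 0 and 3. Leaving out single libraries gave 0 higher and 0 to 2 lower, with the 2 (Gria1 and Grik1) without knockout replicate 3. The block without 1 replicate number gave 0 to 1 higher and 1 to 6 lower. At an unadjusted p under 0.05 the 1 higher gene became 3 with the block and 3 with the 2-level term. It became 0 to 2 without single libraries. In the block without 1 replicate number 2 to 4 genes were higher, and the 7 lower genes became 9 to 12. The share of all genes at this unadjusted p was counted only with all libraries and no block (3.69% lower, 4% higher). These moves are therefore no result about the 40 genes. Of the partner genes, 0 were higher and 2 lower. The block gave 1 and 5, the 2-level term 0 and 5, DESeq2 0 and 3, replicates 1 and 2 alone 1 and 1, replicates 3 and 4 alone 0 and 1, and upper-quartile scaling 0 and 1. Leaving out single libraries gave 1 lower each time, and the block without 1 replicate number gave 0 to 2 higher and 1 to 2 lower. The cause of these moves was not tested, though each left-out library also leaves fewer samples.

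Over 25 named genes and 525 pairs of gene and setting, 446 kept direction and side of the threshold, 49 passed it, 15 no longer passed (all Shisa9) and 15 turned. Dlg3 was at 0.022 and Shank1 at 0.043 in replicates 3 and 4 alone, and Dlgap5 at −0.021 and Gria2 at −0.032 in replicates 1 and 2 alone. Without single libraries Gria2 ranged from −0.025 (without knockout replicate 3) to 0.15, Grm7 from −0.101 to 0.126 and Shank1 from −0.168 to 0.094. In the block without 1 replicate number Dlgap5 turned to −0.01, Gria2 to 0, Grin2b to 0.012, Grm7 to −0.051 and Shank1 to 0.024 and 0.02. Genes with few reads, such as Grin2c with 9 to 51 per library, could show only large differences.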
